A study of Mus musculus with 4 samples.

Results

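The 8 genes described here are markers and working parts of plasma cells, the antibody-secreting end stage of the B lineage: Jchain, Xbp1, Prdm1, Mzb1, Sdc1, Irf4, Tnfrsf17 and Derl3. They were chosen by symbol, the older symbol Igj standing for Jchain, from the 30702 genes that the array's gene table names, and all 8 have their own transcript cluster, as the array's probe group for a gene is called. Marrow was profiled in 4 groups of mice, with 1 array each: mice given Astragalus membranaceus (a root of Chinese medicine, astragalus below), mice given electro-acupuncture (needles that pass a current), mice given cisplatin (a platinum compound that damages DNA and harms dividing marrow cells) and control mice. Tibias were harvested after 2 weeks of treatment, and the series text speaks of 6 mixed marrow samples, read here as a pool behind each array. The labels give no strain, sex, age or dose, and they do not say whether astragalus and electro-acupuncture mice also received cisplatin, so both are set against control and against cisplatin.

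Plasma cells arise when an activated B cell shuts down its B cell genes and expands its endoplasmic reticulum (ER) to fold and secrete antibody. Irf4 and Prdm1 (the repressor Blimp-1) switch the programme on, Xbp1 builds the secretory machinery, Mzb1 and Derl3 work in the ER on folding and on disposal of misfolded protein, Jchain joins IgM and IgA into polymers, and Sdc1 (CD138) and Tnfrsf17 (BCMA, a receptor for the survival factors APRIL and BAFF) sit on the cell surface. Bone marrow is the main home of long-lived plasma cells. Several of them are not specific to plasma cells: Irf4 is also made by B cell precursors, mature B cells, T cells and dendritic cells, Xbp1 and Prdm1 by many cells, and Mzb1 by B cells and plasmacytoid dendritic cells.

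The upstream sequences of the members that the results turn on, Jchain and Irf4, are shown with that of Derl3, which holds a known element of ER stress genes. RefSeq's promoter table (GRCm38.p6) matched 7 of the 8 members by symbol, all but Mzb1, and the 250 bases before each gene's start are printed in the gene's own direction. The Jchain stretch is chr5:88527898-88528147 on the minus strand, the Irf4 stretch chr13:30748983-30749232 on the plus strand and the Derl3 stretch chr10:75893148-75893397 on the plus strand. Capitals mark a TATA box in Irf4 and an ER stress response element, in reverse, in Derl3.
Jchain: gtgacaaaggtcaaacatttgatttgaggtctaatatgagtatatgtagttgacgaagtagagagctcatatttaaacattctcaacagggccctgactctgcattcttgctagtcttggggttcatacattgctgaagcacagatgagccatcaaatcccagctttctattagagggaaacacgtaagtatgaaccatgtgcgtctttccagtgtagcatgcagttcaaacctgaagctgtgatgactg
Irf4: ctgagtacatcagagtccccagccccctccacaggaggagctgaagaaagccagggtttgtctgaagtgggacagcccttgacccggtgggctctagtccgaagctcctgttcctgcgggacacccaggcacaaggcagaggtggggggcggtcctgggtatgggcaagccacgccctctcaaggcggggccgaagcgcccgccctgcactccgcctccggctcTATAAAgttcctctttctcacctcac
Derl3: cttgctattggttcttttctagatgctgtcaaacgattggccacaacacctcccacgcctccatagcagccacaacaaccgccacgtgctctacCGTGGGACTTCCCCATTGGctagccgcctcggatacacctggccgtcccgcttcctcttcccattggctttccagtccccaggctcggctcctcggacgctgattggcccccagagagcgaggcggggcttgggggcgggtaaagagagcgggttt

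Both strands were searched for 5 motifs, none of which overlapped another in these genes. The ER stress response element, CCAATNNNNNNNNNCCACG, is bound by ATF6 and XBP1 and was found 156 to 138 bases before the Derl3 start; 37 of 32851 promoters in the table (0.113%) hold it. The TATA box, TATAAA, lay 26 to 21 bases before the Irf4 start and is held by 12.4% of promoters. It was also found 114 bases before the Tnfrsf17 start. The octamer ATGCAAAT of immunoglobulin genes (1.6% of promoters), the ETS and IRF composite GGAANNGAAA (2.3%) and the unfolded protein response core TGACGTG (1.65%) were in none of the 7 windows. The Jchain, Xbp1, Sdc1 and Prdm1 windows held none of the 5. A match describes letters only.

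The values are log2 levels as deposited. Each group has 1 array, so no level has a replicate error, no difference has a replicate check and no test was possible. A gene was compared when its mean over the 4 arrays reached 5.235, the median over all clusters, which left 17195 genes. Of the members 7 reached this floor and Prdm1 did not. Prdm1 is still described, and it enters the counts and medians over the 8 members. A difference is called by size alone, at 2-fold or more (a log2 difference of at least 1). In bulk marrow, fewer cells of a type and less RNA per cell cannot be told apart.

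The plasma cell genes did not differ in one direction as a group. Jchain was highest after astragalus, Irf4 was highest in control, and the other 6 members differed by less than 2-fold in all 6 comparisons.

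**Figure D1:**
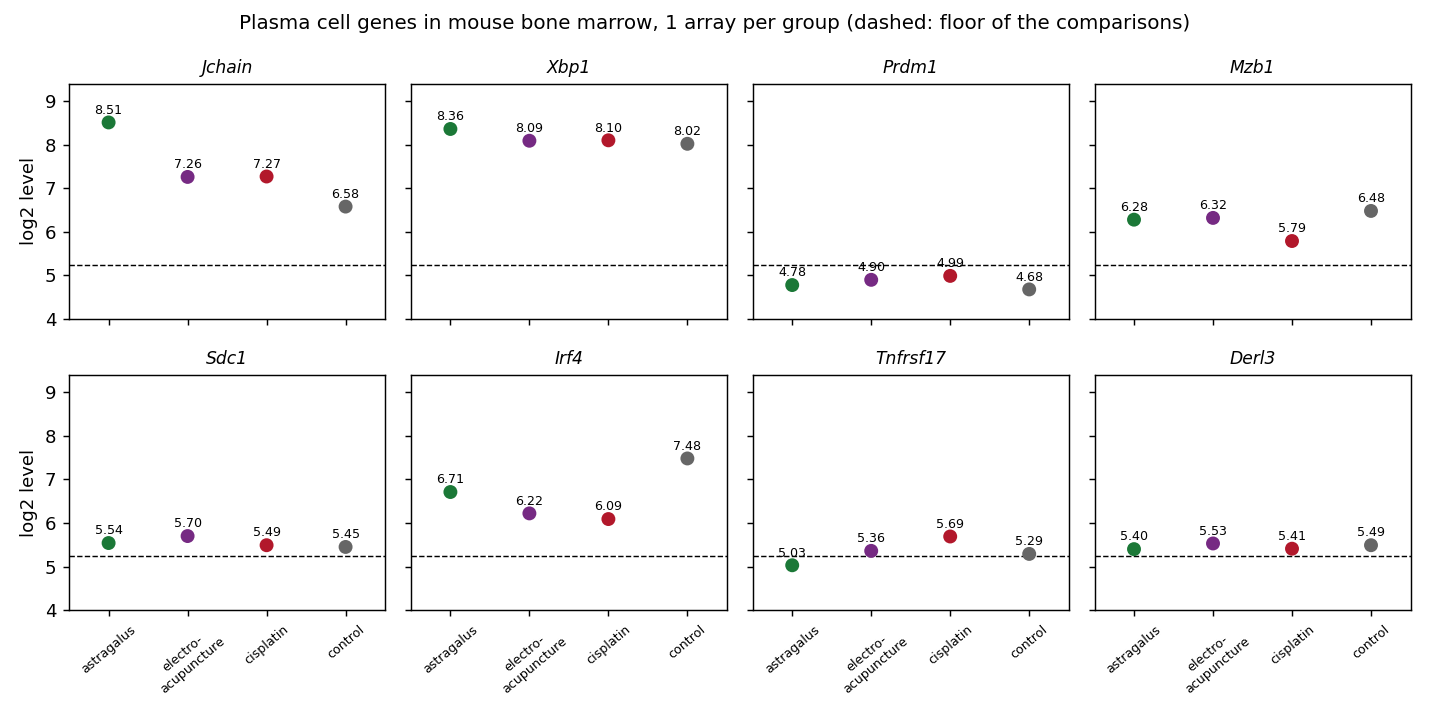
Log2 level of each of the 8 plasma cell genes (vertical axis) on the astragalus, electro-acupuncture, cisplatin and control arrays (horizontal axis), 1 point per array, with the floor of 5.235 dashed. Jchain stands at 8.51 after astragalus against 6.58 in control, Irf4 at 7.48 in control with the other arrays between 6.09 and 6.71, and Prdm1 lies under the floor on every array.

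Jchain, which links antibody monomers, had a log2 level of 8.51 in astragalus marrow, 7.26 after electro-acupuncture, 7.27 after cisplatin and 6.58 in control. The astragalus array was the highest by 1.24 over the next one, the electro-acupuncture and cisplatin arrays were level within 0.01, and control was the lowest. Astragalus marrow was 3.81-fold higher than control, 2.36-fold higher than cisplatin and 2.38-fold higher than electro-acupuncture. Of all genes compared, 1.45% differed by as much as Jchain between astragalus and control, 1.82% between astragalus and cisplatin and 0.622% between astragalus and electro-acupuncture. Cisplatin marrow was 1.61-fold and electro-acupuncture marrow 1.6-fold higher than control.

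Bright genes read higher on the astragalus array than on the others, which bears on Jchain. Genes with a mean of at least 6.63 had a median difference of 0.19 from control and 0.18 from cisplatin in astragalus. With that trend with level removed by loess, Jchain in astragalus was still higher by 1.78 than control, by 1.07 than cisplatin and by 1.07 than electro-acupuncture on the log2 scale.

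The genes whose levels followed Jchain most closely were sought among 10885 protein-coding genes, by the root mean square distance over the 4 arrays after centring each gene on its own mean. The nearest were Ifitm6 (an interferon-induced transmembrane family gene, distance 0.137), Csta2 (a stefin family gene, 0.145), the ribosomal protein gene Rpl8 (0.161), Cstdc4 (also of the stefin family, 0.164) and Ahcy (S-adenosylhomocysteine hydrolase, 0.183). No other plasma cell gene was among them. With 4 arrays behind it, such a likeness is a description, and the genes share the arrays' scaling.

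Among genes of antibody itself, 4 of the 12 constant region genes listed had a cluster naming 1 gene, and 3 of these reached the floor. Ighm, the heavy chain of IgM, was at 15.78 in astragalus, 14.97 in electro-acupuncture, 14.83 in cisplatin and 14.99 in control. The astragalus array was thus the highest for Ighm too, by 1.73-fold over control and 1.93-fold over cisplatin. With the trend with level removed, these log2 differences were 0.22 and 0.55. Ighg2b (IgG2b) was at 6.15 in astragalus, 6.15 in electro-acupuncture, 5.95 in cisplatin and 5.59 in control. Ighg1 (IgG1) was at 5.99 in astragalus, 5.60 in electro-acupuncture, 5.54 in cisplatin and 5.71 in control. Astragalus was the highest or level with the highest array for all 3, and it was the highest for 36.7% of all genes compared. Ighg1 and Ighg2b lay not far above the floor, with means over the arrays of 5.71 and 5.96. Ighm is made by B cells as well as plasma cells.

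Irf4 showed another order. Its level was 6.71 in astragalus, 6.22 in electro-acupuncture, 6.09 in cisplatin and 7.48 in control. All treated arrays were under control, and cisplatin and electro-acupuncture differed from each other by 0.13. Irf4 was 2.62-fold lower in cisplatin than in control, 2.39-fold lower in electro-acupuncture and 1.71-fold lower in astragalus. A difference as large as that of Irf4 was seen for 0.989% of genes in cisplatin, 4.49% in electro-acupuncture and 14.2% in astragalus. All 3 use the single control array, so they are not independent of each other. Against cisplatin, astragalus marrow was 1.54-fold higher and electro-acupuncture marrow 1.09-fold higher.

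The genes nearest to Irf4 over the 4 arrays were Cd79b (a signalling chain of the B cell receptor, distance 0.036), Bach2 (a repressor that holds back plasma cell differentiation, 0.103), Glcci1 (0.108), Ebf1 (the factor that specifies the B lineage, 0.111) and Pkhd1l1 (0.131). Cd79b was at 9.87 in astragalus, 9.33 in electro-acupuncture, 9.22 in cisplatin and 10.54 in control. Bach2 was at 7.58 in astragalus, 7.27 in electro-acupuncture, 7.17 in cisplatin and 8.63 in control. These genes were picked for their likeness to Irf4, so their shared order is fixed by the choice.

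**Figure D2:**
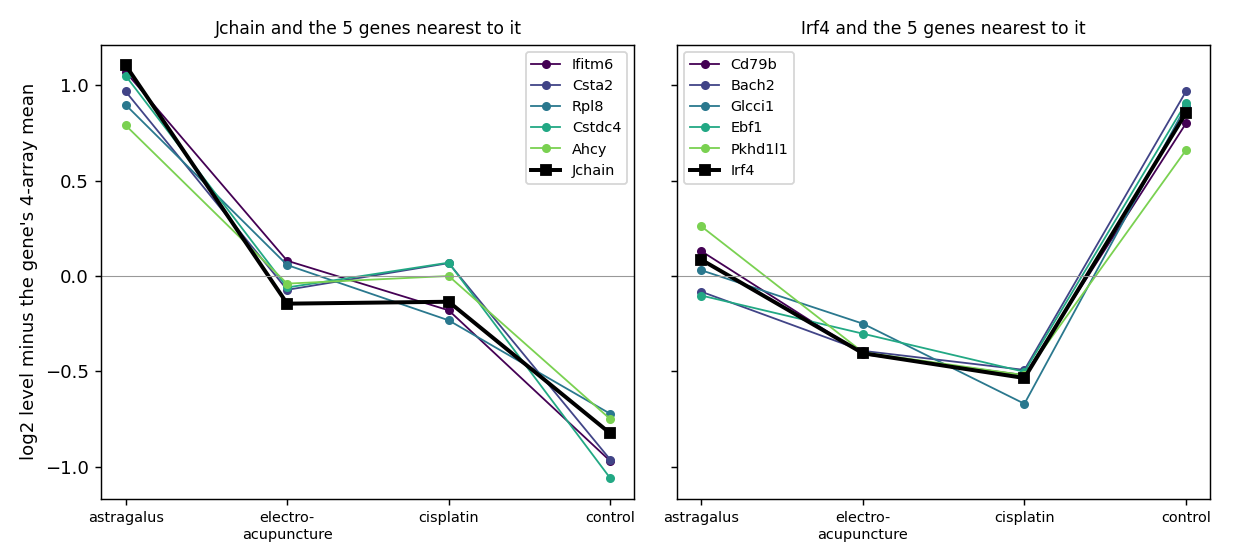
Log2 level minus each gene's own mean over the 4 arrays (vertical axis) by array, for Jchain with its 5 nearest genes and for Irf4 with its 5 nearest genes; lines only join the points of a gene. The Jchain group peaks on the astragalus array, and the Irf4 group peaks in control and is low after electro-acupuncture and cisplatin.

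Genes listed as markers of mature B cells, which also make Irf4, were mostly lower than control as Irf4 was. The B cell stage behind them was not tested. For comparison with the counts of each list, 55.3% of all genes were higher than control in astragalus, 53.7% in electro-acupuncture and 50.6% in cisplatin. Of the 12 mature B cell markers above the floor (12 of 14 had a cluster), 11 were lower in astragalus than in control, 12 in electro-acupuncture and 11 in cisplatin. Their median log2 differences were -0.58 in astragalus, -0.69 in electro-acupuncture and -0.55 in cisplatin. Their summed signal was 11.34 in astragalus, 11.13 in electro-acupuncture, 11.07 in cisplatin and 12.00 in control on the log2 scale. Cd79b, picked above as the gene nearest to Irf4, had the highest level of the list on every array and weighs most in this sum. Sizes differed within the list: Ms4a1 lay between 7.06 and 8.32 over the arrays, Cr2 between 6.72 and 6.80 and Fcer2a between 6.28 and 6.53. H2-Aa was higher in astragalus (6.23) and cisplatin (6.22) than in control (5.94). Of the 9 plasmacytoid dendritic cell markers above the floor, 8 were lower than control in astragalus, 5 in electro-acupuncture and 9 in cisplatin. Their summed signal was 9.59 in astragalus, 9.76 in electro-acupuncture, 9.60 in cisplatin and 9.91 in control. In electro-acupuncture 3 of the 9 were higher, with a median of -0.09. Siglech, a defining marker of these cells, was at 6.09 in astragalus, 6.56 in electro-acupuncture, 6.52 in cisplatin and 7.26 in control. T cell markers did not share this direction: 4 of the 10 listed were above the floor, of which 4 were higher than control in astragalus, 2 in electro-acupuncture and 3 in cisplatin. Their median differences were 0.07 in astragalus, 0.01 in electro-acupuncture and 0.22 in cisplatin. The summed signal was 8.80 in astragalus, 8.44 in electro-acupuncture, 8.40 in cisplatin and 8.48 in control, most of it from Cd3d, and Cd4 was under the floor. The part of the B cells, dendritic cells and T cells in the Irf4 difference was not tested.

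Mzb1, a chaperone of IgM assembly in the ER, was at 6.28 in astragalus, 6.32 in electro-acupuncture, 5.79 in cisplatin and 6.48 in control. The cisplatin array stood apart as the lowest, and the other arrays lay within 0.2 of each other. Mzb1 was 1.61-fold lower in cisplatin than in control, and 8.19% of genes differed by as much. Astragalus and electro-acupuncture marrow were 1.4-fold and 1.44-fold higher than cisplatin.

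Xbp1, the factor of the secretory programme, was at 8.36 in astragalus, 8.09 in electro-acupuncture, 8.10 in cisplatin and 8.02 in control. Astragalus was the highest array, 1.27-fold over control, a size that 39.1% of genes reached, and with the trend with level removed the log2 difference was 0.14. The array measures Xbp1 RNA as a whole, so its splicing, which makes the active factor, is not seen.

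The remaining members were close to the floor or under it. Sdc1 was at 5.54 in astragalus, 5.70 in electro-acupuncture, 5.49 in cisplatin and 5.45 in control, a range of 0.25. Derl3 was at 5.40 in astragalus, 5.53 in electro-acupuncture, 5.41 in cisplatin and 5.49 in control, a range of 0.13, and its difference between astragalus and control was -0.09 as deposited but 0.03 with arrays centred on their medians. Tnfrsf17 was at 5.03 in astragalus, under the floor, 5.36 in electro-acupuncture, 5.69 in cisplatin and 5.29 in control. Cisplatin marrow was thus 1.32-fold higher than control for Tnfrsf17, and astragalus marrow lower than cisplatin by 0.66 on the log2 scale. Prdm1 was at 4.78 in astragalus, 4.90 in electro-acupuncture, 4.99 in cisplatin and 4.68 in control, which are all levels of the dimmer part of the array. The cluster values of Prdm1, Sdc1, Derl3 and Tnfrsf17 all lay between 4.68 and 5.70, close to the array medians of 5.15 to 5.31.

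**Figure D3:**
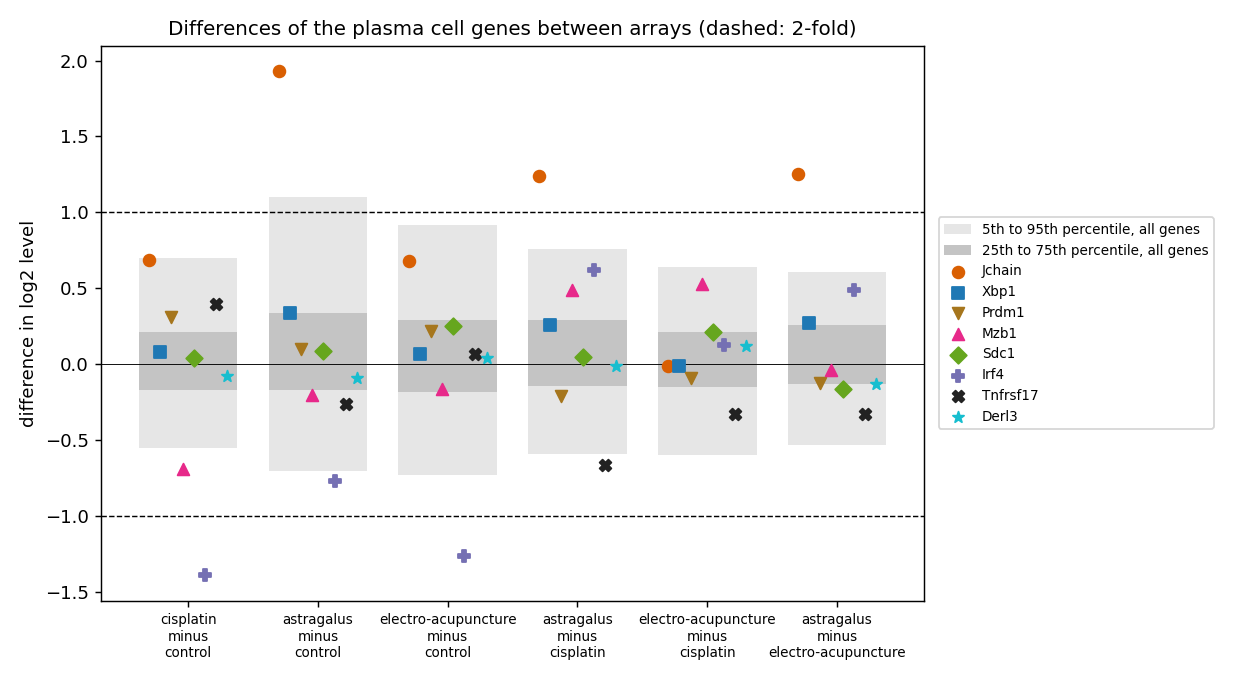
Differences in log2 level (vertical axis) for the 8 plasma cell genes in each of the 6 comparisons (horizontal axis), over grey bands for the middle of all 17195 genes compared, with 2-fold dashed. Jchain lies above the upper dashed line in the 3 comparisons of astragalus, and Irf4 below the lower one in cisplatin and electro-acupuncture against control.

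Counted by comparison, 1 of 8 members (Irf4, lower) was past 2-fold in cisplatin against control, as were 2.98% of all genes. Between astragalus and control it was 1 member (Jchain, higher) with 8.82% of genes, and between electro-acupuncture and control 1 member (Irf4, lower) with 7.26%. Astragalus against cisplatin had 1 (Jchain, higher) with 3.92%, electro-acupuncture against cisplatin had 0 with 3.91%, and astragalus against electro-acupuncture had 1 (Jchain, higher) with 1.53%. The members' median log2 differences were 0.06 for cisplatin, 0.00 for astragalus and 0.07 for electro-acupuncture against control, beside 0.01, 0.05 and 0.04 over all genes. With the 7 members above the floor they were 0.04 for cisplatin, -0.09 for astragalus, where the direction is thus not settled, and 0.07 for electro-acupuncture. Against cisplatin the medians over the 8 were 0.15 for astragalus and 0.06 for electro-acupuncture, beside 0.06 and 0.02 over all genes, and over the 7 they were 0.26 and 0.12. Between astragalus and electro-acupuncture the median was -0.08 (-0.04 over the 7), beside 0.06 over all genes, and its direction turned with the trend removed (0.02) and with median centring (0.08).

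A second list of genes that plasma cells use, 14 of 19 above the floor, was as mixed. In cisplatin 6 were higher and 8 lower than control, with a median of -0.13. Slamf7, a surface receptor of plasma cells and cytotoxic lymphocytes, was at 7.21 in astragalus, 7.16 in electro-acupuncture, 6.77 in cisplatin and 8.14 in control, so that control was the highest. Pou2af1, the B cell coactivator OBF-1, was at 6.82 in astragalus, 7.11 in electro-acupuncture, 6.16 in cisplatin and 7.24 in control. Both were at least 2-fold lower in cisplatin than in control, 2.58-fold for Slamf7 and 2.11-fold for Pou2af1. Txndc5, an ER disulfide isomerase, was 1.69-fold higher in astragalus, 1.39-fold in electro-acupuncture and 1.42-fold in cisplatin than in control. The list's median in astragalus against control was 0.17, and -0.10 with the trend with level removed, so its direction depends on that choice.

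The ER machinery on which secretion depends had medians above control on all treated arrays. Of all genes compared, 55.3% were higher than control in astragalus, 53.7% in electro-acupuncture and 50.6% in cisplatin. Of 20 genes of ER folding and the unfolded protein response, 18 were higher in astragalus, 14 in electro-acupuncture and 14 in cisplatin, with medians of 0.39, 0.32 and 0.30. Removing the trend with level left medians of 0.14, 0.22 and 0.15. Hspa5, the ER chaperone BiP, was at 10.44 in astragalus, 10.71 in electro-acupuncture, 10.35 in cisplatin and 9.52 in control. Pdia3, a disulfide isomerase, was at 11.47 in astragalus, 11.27 in electro-acupuncture, 10.79 in cisplatin and 10.24 in control, and both genes were lowest in control. Atf6 and Eif2ak3 of the unfolded protein response went the other way on every treated array. Atf6 was at 8.71 in astragalus, 8.45 in electro-acupuncture, 8.38 in cisplatin and 8.81 in control. Eif2ak3 was at 7.38, 7.22, 7.31 and 7.72 in the same order. Ern1, Atf4 and Ddit3 were lower than control in electro-acupuncture and cisplatin and higher in astragalus. Upstream windows of 20 genes of this list were in the promoter table, and 7 hold the ER stress response element seen in Derl3: Calr, Canx, Creld2, Dnajc3, Hsp90b1, Hspa5 and Pdia6. Hspa5 was 2.28-fold higher in electro-acupuncture than in control, and Creld2 had levels between 8.30 and 8.36 on all arrays.

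Of 25 genes of ER import, export and degradation, 22 were higher in astragalus, 20 in electro-acupuncture and 19 in cisplatin than in control, with medians of 0.42, 0.34 and 0.20, and of 0.25, 0.31 and 0.19 without the trend. Ssr2, a subunit of the translocon-associated complex, was at 10.15 in astragalus, 9.80 in electro-acupuncture, 9.52 in cisplatin and 8.25 in control. Spcs1, a signal peptidase subunit, was at 8.40 in astragalus, 8.08 in electro-acupuncture, 7.44 in cisplatin and 7.37 in control. Control was the lowest array for both, as it was for 32.5% of all genes compared, and both were named for their large differences. Some members were lower than control on every treated array. Edem3 was at 8.46 in astragalus, 8.31 in electro-acupuncture, 7.85 in cisplatin and 8.69 in control. Derl1, a relative of Derl3, was at 9.74 in astragalus, 9.58 in electro-acupuncture, 9.44 in cisplatin and 8.78 in control. Every secretory cell of the marrow uses these genes, and the markers of neutrophil primary granules, made by cells rich in ER, were also higher: 6 of 6 in astragalus, 5 of 6 in electro-acupuncture and 6 of 6 in cisplatin, with medians of 1.70, 1.39 and 0.94. The summed signal of these granule markers was 14.33 in astragalus, 13.93 in electro-acupuncture, 13.47 in cisplatin and 12.44 in control. The part of these cells in the ER difference was not tested.

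B cell genes that are silenced in plasma cells, by Prdm1 among others, had medians below control on all treated arrays. Of 15 above the floor, 13 were lower in astragalus, 13 in electro-acupuncture and 11 in cisplatin than in control, with medians of -0.54, -0.72 and -0.47. Spib, a B cell factor, was at 7.86 in astragalus, 7.42 in electro-acupuncture, 7.48 in cisplatin and 9.03 in control. Ebf1 was at 9.39 in astragalus, 9.19 in electro-acupuncture, 8.99 in cisplatin and 10.40 in control. Both were at least 2-fold lower than control on every treated array. Spi1 went the other way, at 7.84 in astragalus, 7.33 in electro-acupuncture and 7.63 in cisplatin against 7.10 in control. Myc was at 10.23 in cisplatin against 9.67 in control. Prdm1 was under the floor on every array, and its part in the list was not tested. Against cisplatin the list had medians of 0.08 in astragalus and -0.06 in electro-acupuncture. The list overlaps the mature B cell markers. It also holds Ebf1, Cd79b and Bach2, picked above as near to Irf4, so their order is fixed by that choice.

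**Figure D4:**
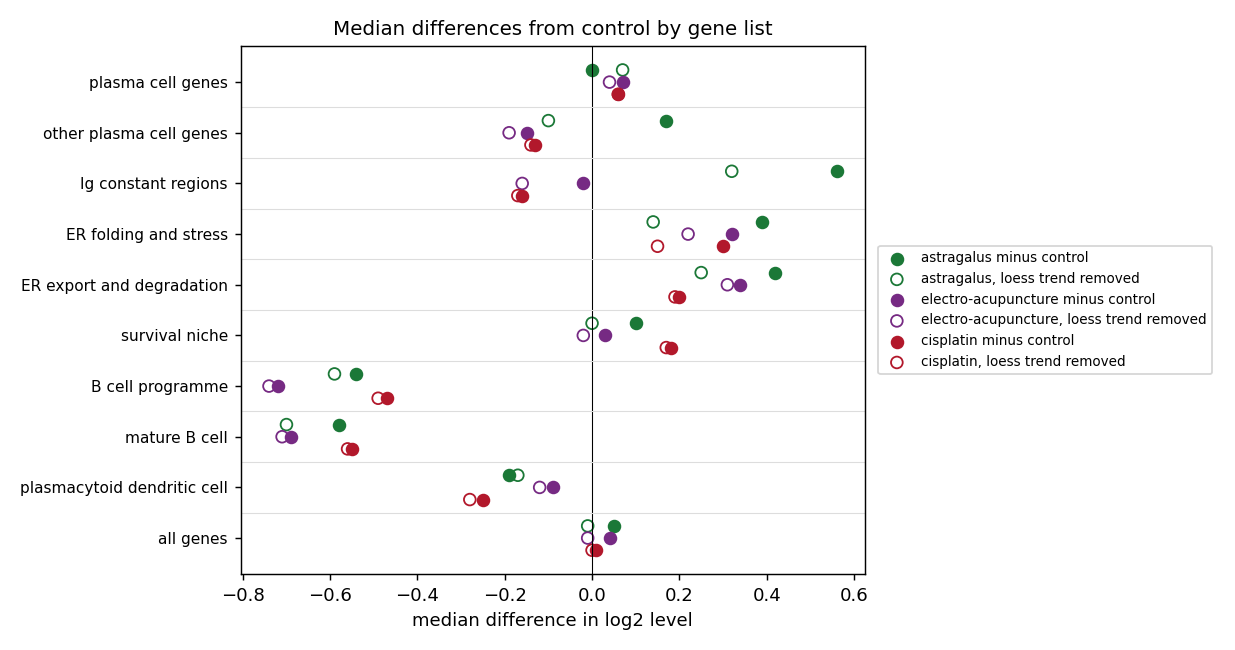
Median difference in log2 level from control (horizontal axis) for each gene list (vertical axis) in astragalus, electro-acupuncture and cisplatin marrow; filled points are the values as deposited and open points those with the trend with level removed. The ER lists lie above 0 and the B cell lists below 0 on each treated array, while the plasma cell medians lie between 0.00 and 0.07.

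Genes of the niche that keeps plasma cells alive differed among themselves. Cxcl12, the chemokine that holds plasma cells in the marrow, was at 12.95 in astragalus, 13.28 in electro-acupuncture, 12.46 in cisplatin and 10.91 in control. Vcam1, an adhesion molecule of stroma and macrophages, was at 10.00 in astragalus, 10.25 in electro-acupuncture, 9.91 in cisplatin and 8.69 in control. Control was the lowest array for both, and each was at least 2-fold higher on every treated array. Tnfsf13b, which encodes BAFF, was at 6.64 in astragalus, 6.49 in electro-acupuncture, 6.47 in cisplatin and 6.60 in control, and the interleukin 6 gene Il6 was under the floor. The niche list of 14 genes had medians against control of 0.10 in astragalus, 0.03 in electro-acupuncture and 0.18 in cisplatin. With the trend removed they were 0.00, -0.02 and 0.17, so the direction was not settled in astragalus or electro-acupuncture. Eosinophils have been proposed as another support of plasma cells. Their 6 markers above the floor were mixed: 2 were higher than control in astragalus, 2 in electro-acupuncture and 4 in cisplatin. Their medians were -0.05, -0.07 and 0.05. Prg2, a protein of eosinophil granules, was at 12.45 in astragalus, 10.97 in electro-acupuncture, 13.58 in cisplatin and 12.87 in control. Ccr3, the eotaxin receptor, was at 6.34 in astragalus, 6.61 in electro-acupuncture, 6.61 in cisplatin and 5.81 in control, so the markers did not share an order. Markers of osteoblasts and stroma, a list that holds Cxcl12 too, were higher than control in 7 of 9 genes in astragalus, 7 of 9 in electro-acupuncture and 8 of 9 in cisplatin, with medians of 1.22, 1.49 and 2.06. Their summed signal was 14.26 in astragalus, 13.93 in electro-acupuncture, 15.38 in cisplatin and 11.92 in control. In cisplatin it came mostly from Bglap2 (14.09, against 8.47 in control) and Bglap (13.68, against 8.96). On the other arrays Cxcl12 had the highest level of the list. Of 11 monocyte and macrophage markers above the floor, Vcam1 among them, 7 were higher than control in astragalus, 10 in electro-acupuncture and 7 in cisplatin, with medians of 0.12, 0.58 and 0.25. Cd68, a lysosomal protein of macrophages, was at 8.56 in astragalus, 9.08 in electro-acupuncture, 8.39 in cisplatin and 7.86 in control. Mrc1, the mannose receptor, was at 8.49 in astragalus, 9.06 in electro-acupuncture, 8.27 in cisplatin and 7.65 in control. Both were highest after electro-acupuncture and lowest in control. The list's summed signal, 16.88 in astragalus, 16.19 in electro-acupuncture, 16.04 in cisplatin and 16.45 in control, came mostly from the monocyte gene Ly6c2, and C1qa was under the floor. The part of stroma and of macrophages in the Cxcl12 and Vcam1 differences was not tested.

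The marrow label was checked against its markers: S100a8 and S100a9 of neutrophils were at the ceiling of 19.93 on every array, and Alas2 of red cells was between 14.64 and 15.39. Of the 8 epithelial markers, of cells that also make Sdc1, 7 were under the floor. Sdc1 itself was close to the floor, and the source of its signal was not tested. All 4 arrays have close medians over all clusters, from 5.15 in astragalus to 5.31 in electro-acupuncture. Precision is limited by the number of arrays.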

How the data were processed

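Biotin-labelled cRNA from 6 ug of total RNA per array was measured on Affymetrix arrays, and the deposited table holds log2 values, made with Affymetrix Expression Console per the submitters' processing notes. The sources used here give neither its version nor the summary method or genome build. Of 65956 clusters, 32750 are in the platform's gene table, 31258 with 1 symbol and 1492 with several, from which no gene was named. Old symbols were updated through a RefSeq table (GRCm38.p6), which also told which genes are protein-coding. Of several clusters per gene the one of highest mean was used; each member has 1. Differences are log2 levels of one array minus another, with no test. The loess trend (span 0.3, statsmodels 0.14.6) was fitted over the genes above the floor. Steps were tested on simulated data. Alternatives were quantile normalization, loess, median centring, the mean of clusters and other floors. The members, lists and rules for named genes (up to 4 of each pathway list per comparison, by size of difference; up to 2 defining genes of each marker list; all members; 5 nearest genes of each member with a range of at least 1) were chosen with earlier results of these data known. Some genes named fall outside that rule and were chosen after their values were seen. They are Creld2, Derl1, Tnfsf13b, Il6, Cd3d, Ly6c2, C1qa, Ms4a1, Cr2, Fcer2a, H2-Aa, Atf6, Eif2ak3, Atf4, Bglap, Bglap2 and the genes named for a promoter match.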

Additional observations from a re-analysis of the deposited data

How the results depend on the processing

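No paired analysis was possible because each group has 1 array. With no replicates, a median or single difference is said to move when its shift passes a limit. The limit is the median absolute difference of all genes in that comparison, 0.18 to 0.25 on the log2 scale. A count is said to move when it changes by more than a factor of 1.5. Each member has 1 cluster, so the mean of clusters cannot alter a member, nor can a floor alter a single member, and such values are not counted here. The members' medians as deposited lay between -0.08 and 0.15, under these limits in size. A median can thus change direction without being said to move. Of 60 alternative values of the members' medians and 2-fold counts, 53 did not move. The other 7 all come from keeping only members with a mean of at least 6.63, which leaves 2 genes, Jchain and Xbp1. Their medians were 0.38 for cisplatin, 1.14 for astragalus and 0.38 for electro-acupuncture against control, 0.75 for astragalus against cisplatin and 0.76 for astragalus against electro-acupuncture, and the 2-fold counts of cisplatin and of electro-acupuncture against control were 0, since Irf4 is left out. Of 144 values of single members under quantile normalization, loess and median centring, 1 moved: Xbp1 in astragalus against electro-acupuncture was 0.27 as deposited and 0.07 with loess. The 2-fold differences of Jchain and Irf4 stayed past 2-fold under these 3 settings. Median centring put the median of all genes at 0.17 for astragalus against control (0.05 as deposited), 0.17 against cisplatin (0.06) and 0.22 against electro-acupuncture (0.06). Of 108 values of the pathway lists 6 moved, all in astragalus comparisons. With loess the other plasma cell genes had a median of -0.10 against control (0.17 as deposited). Against cisplatin, ER folding was at -0.05 (0.20) and ER export at 0.06 (0.32) with loess. Against electro-acupuncture, ER folding was at -0.07 (0.13) and ER export at -0.05 (0.21) with loess, and ER export at 0.01 with quantile normalization. The cause was not tested. With 1 array per group, no replicate could be left out.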
